A study of Mus musculus with 6 samples.

Results

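Cathepsins are the main proteases of the lysosome, and cystatins are proteins that bind and block the cysteine proteases among them. The genes described here are 8 cathepsins (Ctsa, Ctsb, Ctsc, Ctsd, Ctsh, Ctsl, Ctss and Ctsz) and the inhibitors Cst3 and Cstb. They were chosen by gene symbol, as cathepsins other than Ctsg and Ctsk with a pair of abundant inhibitors, and all 10 were found among 11489 genes of the table and passed the filter on low values. RNA was sequenced from sorted mouse cells that carried F4/80, a macrophage surface protein encoded by Adgre1, and either showed eGFP from an Epor reporter or did not. There were 3 F4/80+ Epor-eGFP+ and 3 F4/80+ Epor-eGFP- libraries. The labels describe the tissue of both as bone marrow derived macrophage cells, and give erythroblastic island macrophages as the cell type of both. No source used here gives the strain, age and sex of the mice or the design of the reporter, and nothing says whether separate animals gave the libraries of a group. P-values therefore measure only the spread between libraries, which may be technical. Libraries are called by the number in their column name, 0, 1 or 2, and values of libraries 0 to 2 are given in that order.

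Most cathepsins are made as inactive proenzymes, carried to the lysosome by mannose 6-phosphate receptors and switched on there by acid and by other proteases. They digest proteins that a macrophage takes up, including those of engulfed cells and expelled erythroblast nuclei, and they trim antigens for class II molecules. Ctsb, Ctsc, Ctsh, Ctsl, Ctss and Ctsz encode cysteine proteases, Ctsd an aspartic protease and Ctsa a serine carboxypeptidase. Cystatin C, the product of Cst3, is secreted and blocks cysteine cathepsins outside cells and in the endosomal system, while stefin B, the product of Cstb, acts in the cytosol and nucleus.

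Values are FPKM (read fragments divided by gene length and library size), so levels can be set beside each other between genes. The read depth behind them is unknown. The FPKM of all genes summed to 467176 to 519650 in a library, with medians of 11.7 to 11.8. Epor, in libraries 0, 1 and 2, had 0.375, 0.414 and 0.217 FPKM in the Epor-eGFP- group against 6.67, 3.43 and 7.78 FPKM in the Epor-eGFP+ group, without overlap. Adgre1 was at 132 to 139 FPKM in Epor-eGFP- and 117 to 241 FPKM in Epor-eGFP+ libraries. Markers of mature macrophages (8 genes, none listed at 0) summed to 563 to 814 FPKM in Epor-eGFP- and 633 to 1319 FPKM in Epor-eGFP+ libraries. Markers of island and tissue macrophages (C1qa, C1qb, C1qc and 7 others, none listed at 0) summed to 106 to 148 FPKM in Epor-eGFP- libraries, and to 3133, 1835 and 6968 FPKM in Epor-eGFP+ libraries 0 to 2. Transcripts of other marrow cells were present in both groups. Neutrophil markers summed to 24522 to 38755 FPKM in Epor-eGFP- and 13133 to 17073 FPKM in Epor-eGFP+ libraries, and monocyte markers to 4257 to 5276 FPKM and 1622 to 2075 FPKM. Promyelocyte markers were higher in Epor-eGFP+, at 7532 to 9353 FPKM against 1428 to 2673 FPKM in Epor-eGFP- libraries. Eosinophil markers summed to 9142 to 14404 FPKM in Epor-eGFP- and 3281 to 13292 FPKM in Epor-eGFP+ libraries. Of these, Prg2 was listed at 0 in Epor-eGFP+ library 0. Erythroid markers summed to 54.2 to 738 FPKM in Epor-eGFP- and 525 to 1881 FPKM in Epor-eGFP+ libraries. Much of the sum in Epor-eGFP- library 2 was Hbb-b1 (345 FPKM) and Hba-a1 (258 FPKM). By the test below, 7 of the 12 erythroid genes were higher and 5, with all the globin genes, had no call. Of all tested genes 22.7% were higher. In such bulk samples fewer cells of a type and less RNA per cell cannot be told apart.

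Ctsd, Ctsb and Ctsl rose in Epor-eGFP+ cells, Ctsh fell, and Ctsa, Ctsc, Ctss, Ctsz, Cst3 and Cstb did not pass the test. The test was limma on log2(FPKM + 1), with p-values adjusted by the Benjamini-Hochberg method over 10964 tested genes and a threshold of 0.05, and it compared 3 libraries with 3. By this rule 3 of the 10 genes were higher and 1 was lower, against 22.7% of all tested genes higher and 26.3% lower (49.0% called in either direction). A share of 4 in 10 is close to that background. Without Epor-eGFP- library 0 only Ctsd was higher, and without Epor-eGFP+ library 2 Ctsh and Cst3 were lower. The median log2 fold change was 0.24 over the 10 genes and -0.01 over all tested genes, and over the 10 genes it was -0.0053 without Epor-eGFP+ library 2. When all libraries were scaled to the same total FPKM, higher calls made up 59.5% of all called genes in place of 46.3%, and 4 of the 10 genes were higher and 1 lower.

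**Figure D1:**
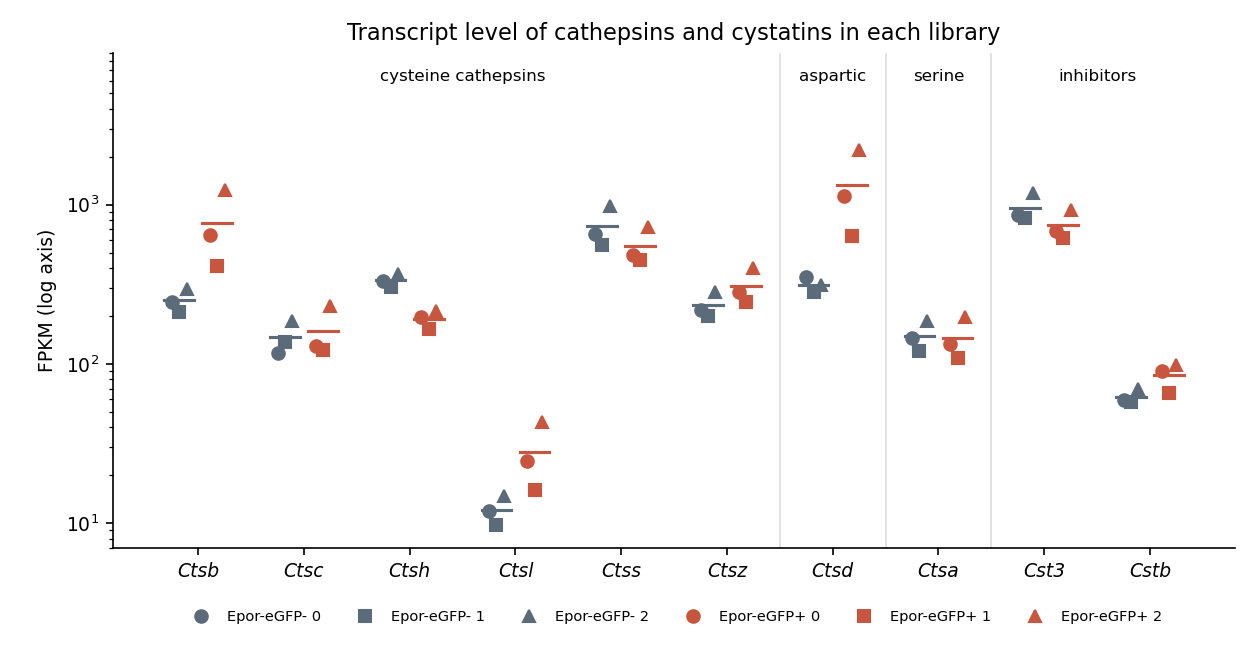
FPKM (log axis) of 8 cathepsins and 2 inhibitors in each of 6 libraries, grouped by the class of protease, with grey for Epor-eGFP-, red for Epor-eGFP+, a marker shape for the library number and a line at the group mean. Ctsd, Ctsb and Ctsl lay higher in every Epor-eGFP+ library than in any Epor-eGFP- library, Ctsh lay lower, and the other 6 genes overlapped.

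Cathepsin D is the aspartic protease that starts the breakdown of many proteins in the acid lysosome, and its gene showed the largest difference of the 10. Ctsd was at 349.6, 283 and 312 FPKM in Epor-eGFP- libraries 0 to 2 and at 1133, 634 and 2208 FPKM in Epor-eGFP+ libraries 0 to 2. The groups were well apart, and the Epor-eGFP+ libraries spread 3.48-fold between the lowest and the highest, against 1.24-fold in Epor-eGFP-. The means were 1325 ± 805 and 315 ± 33.5 FPKM (SD, n = 3 per group, as in all means below), a log2 fold change of 1.89 (SE 0.41, limma adjusted p = 0.00885). Without Epor-eGFP+ library 2 the mean was 883 FPKM and the log2 fold change 1.43 (adjusted p = 0.00561). Ctsd was the 38th most abundant gene of the table in Epor-eGFP+ libraries by mean FPKM and the 236th in Epor-eGFP- libraries.

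Cathepsin B, which cuts within proteins and also removes dipeptides from their C-terminal end, had the next largest rise. Ctsb was at 243, 213 and 296 FPKM in Epor-eGFP- libraries 0 to 2 and at 647, 410.4 and 1243 FPKM in the Epor-eGFP+ libraries. All Epor-eGFP+ libraries were above all Epor-eGFP- libraries. The means were 767 ± 429 and 251 ± 41.8 FPKM (log2 fold change 1.47, SE 0.37, limma adjusted p = 0.0165). Without Epor-eGFP- library 0 the log2 fold change was 1.46 and the adjusted p 0.0533, and without Epor-eGFP+ library 2 they were 1.05 and 0.0112. Cathepsin L, an endopeptidase that also processes other lysosomal enzymes, had the least abundant transcript of the 10. Ctsl was at 11.8, 9.72 and 14.8 FPKM in Epor-eGFP- and at 24.5, 16.3 and 43.1 FPKM in Epor-eGFP+ libraries 0 to 2. Its groups did not overlap either, although Epor-eGFP+ library 1 lay close to Epor-eGFP- library 2. The means were 28.0 ± 13.8 and 12.1 ± 2.54 FPKM (log2 fold change 1.05, SE 0.33, limma adjusted p = 0.0341). The call was lost without Epor-eGFP- library 0 (adjusted p = 0.0898), Epor-eGFP- library 1 (0.0949) or Epor-eGFP+ library 0 (0.0799).

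Cathepsin H, which acts chiefly as an aminopeptidase, was the only gene of the 10 to fall in this test. Ctsh was at 332, 305 and 366 FPKM in Epor-eGFP- libraries 0 to 2 and at 196, 165 and 214 FPKM in the Epor-eGFP+ libraries. The groups did not overlap, and neither spread more than 1.29-fold. The means were 335 ± 30.9 and 192 ± 24.4 FPKM (log2 fold change -0.80, SE 0.12, limma adjusted p = 0.00225). The fall passed with any single library left out, with log2 fold changes from -0.89 to -0.70. By an exact two-sided permutation test over the libraries, p was 0.1 for Ctsd, Ctsb, Ctsl and Ctsh, the smallest that 3 against 3 allow. Groups that do not overlap were found for these 4 genes of 10 and for 60.4% of all tested genes.

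Promoter sequences show where the E-box CACGTG lies, the core letters of the element bound by Tfeb and its relatives in genes of the lysosome. RefSeq promoter windows of 300 bases (250 before the start and 50 from it onwards, GRCm38.p6) were at hand for 7 of the 10 genes, Ctsa having 2. No window was at hand for Ctsb, Ctsh and Cstb, so these genes were not searched for any motif. CACGTG, which reads the same on both strands, was in the windows of Ctsd, Ctsl and Ctsa (its second window). These were 3 of 8 windows, against 7.15% of 32851 windows of all genes. A longer form of the Tfeb element, with 2 more letters on each side of CACGTG, was also searched. It was in 0 of the 8 windows and in 0.326% of all windows. GAGGAAGT, a sequence bound by the myeloid factor PU.1 and searched on both strands, was in the windows of Ctsc and Ctss, and in 3.20% of all windows. The windows of Ctsd and Ctsl, which rose, and of Ctsa and Ctss, which did not, are printed 5′ to 3′ along the gene, with any CACGTG or GAGGAAGT match, on either strand, in capitals.
Ctsd promoter, chr7:142387778-142388077, minus strand: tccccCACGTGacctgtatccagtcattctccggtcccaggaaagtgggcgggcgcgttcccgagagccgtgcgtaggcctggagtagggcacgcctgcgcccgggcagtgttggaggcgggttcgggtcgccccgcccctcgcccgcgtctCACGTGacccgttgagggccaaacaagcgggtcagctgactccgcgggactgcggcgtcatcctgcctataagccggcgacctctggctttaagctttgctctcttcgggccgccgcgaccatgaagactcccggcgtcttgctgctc
Ctsl promoter, chr13:64370471-64370770, minus strand: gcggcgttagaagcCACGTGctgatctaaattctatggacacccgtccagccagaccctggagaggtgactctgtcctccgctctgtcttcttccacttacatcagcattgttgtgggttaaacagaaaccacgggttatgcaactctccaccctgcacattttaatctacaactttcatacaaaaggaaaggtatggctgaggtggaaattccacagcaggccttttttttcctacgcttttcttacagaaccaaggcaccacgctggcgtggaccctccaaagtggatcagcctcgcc
Ctsa second promoter, chr2:164833523-164833822, plus strand: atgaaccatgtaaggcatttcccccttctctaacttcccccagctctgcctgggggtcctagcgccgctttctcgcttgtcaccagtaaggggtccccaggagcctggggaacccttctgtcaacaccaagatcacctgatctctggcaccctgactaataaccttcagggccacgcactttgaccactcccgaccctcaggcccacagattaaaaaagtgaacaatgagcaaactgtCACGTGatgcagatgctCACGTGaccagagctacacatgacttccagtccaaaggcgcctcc
Ctss promoter, chr3:95526536-95526835, plus strand: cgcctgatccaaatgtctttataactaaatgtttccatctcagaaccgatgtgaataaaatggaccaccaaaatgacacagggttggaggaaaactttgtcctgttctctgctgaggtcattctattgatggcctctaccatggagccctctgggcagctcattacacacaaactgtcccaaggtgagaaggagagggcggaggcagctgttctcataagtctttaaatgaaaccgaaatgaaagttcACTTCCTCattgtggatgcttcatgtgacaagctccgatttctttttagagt
In Ctsd the matches began 245 and 98 bases before the start, and in Ctsl 236 bases before it. In the second Ctsa window they began 12 bases before and 5 bases after the start. The Ctsl window and the second Ctsa window lie wholly inside the annotated spans of their genes. The Ctsd start also lies inside its gene, though its window reaches beyond the gene. The first Ctsa window, at the start of the annotated gene, held no match. The Ctss match, on the other strand, began 2 bases before the start. Ctsa, with matches on both sides of its second start, had no call. Ctsd, with 2 as well, had the largest log2 fold change of the 10. A match is a string of letters, and binding was not measured.

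Cathepsin S, the protease that completes the cutting of the class II invariant chain, was abundant in both groups. Ctss was at 656, 557 and 982 FPKM in Epor-eGFP- and at 481, 449.8 and 724 FPKM in Epor-eGFP+ libraries 0 to 2. Epor-eGFP+ library 2 lay above Epor-eGFP- libraries 0 and 1, so the groups overlapped, and the difference did not pass (732 ± 222 against 552 ± 149.9 FPKM, log2 fold change -0.40, SE 0.26, limma adjusted p = 0.235). Cst3 behaved much alike, at 868, 821 and 1181 FPKM in Epor-eGFP- and 681, 616 and 931 FPKM in Epor-eGFP+ libraries 0 to 2. Its means were 957 ± 196 and 743 ± 166 FPKM (log2 fold change -0.37, SE 0.20, limma adjusted p = 0.164). Without Epor-eGFP+ library 2 the Cst3 difference passed, at -0.54 (adjusted p = 0.0447). Cathepsin Z, a carboxypeptidase, had its transcript at 218, 199.9 and 284 FPKM in Epor-eGFP- and 282, 245 and 399 FPKM in Epor-eGFP+ libraries 0 to 2. Only Epor-eGFP- library 2 reached into the Epor-eGFP+ range (234 ± 44.2 against 309 ± 80.5 FPKM, log2 fold change 0.38, SE 0.21, limma adjusted p = 0.164). Cstb was at 59.2, 57.7 and 69.5 FPKM in Epor-eGFP- and 90.5, 65.8 and 97.9 FPKM in Epor-eGFP+ libraries 0 to 2. Epor-eGFP+ library 1 lay below Epor-eGFP- library 2 (62.1 ± 6.45 against 84.7 ± 16.8 FPKM, log2 fold change 0.43, SE 0.16, limma adjusted p = 0.0588). Without Epor-eGFP+ library 1 the difference passed, at 0.60 (adjusted p = 0.00739). It also passed on rescaling to a common total (0.0198) or upper quartile (0.0275) and under quantile normalization (0.0265). Of these, only quantile normalization gave a pass for Ctsz (limma adjusted p = 0.0187).

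These 4 genes differed in 1 direction within every pair of libraries with the same number. Over the numbers 0, 1 and 2, the Epor-eGFP+ minus Epor-eGFP- difference in log2(FPKM + 1) was -0.45, -0.31 and -0.44 for Ctss and -0.35, -0.41 and -0.34 for Cst3. It was 0.37, 0.29 and 0.49 for Ctsz and 0.60, 0.19 and 0.49 for Cstb. Same-numbered libraries deviated together across genes, so the fit was also made with the number as a replicate block. In that fit Ctss (limma adjusted p = 0.00965) and Cst3 (0.0122) were lower, and Ctsz (0.00838) and Cstb (0.0157) were higher. With the block 5 of the 10 genes were higher and 3 lower, against 28.0% and 30.4% of all tested genes. What the number marks is not given in the sources used here.

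**Figure D2:**
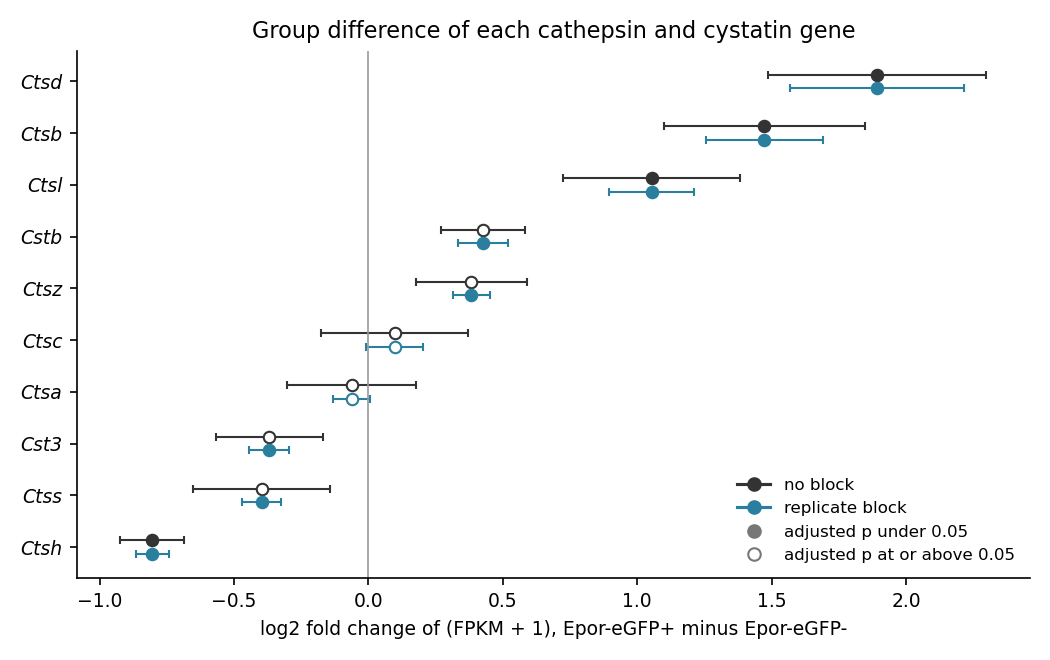
Log2 fold change of (FPKM + 1), Epor-eGFP+ minus Epor-eGFP-, for each of the 10 genes, in the fit without a block (dark) and with the replicate block (blue), with bars of 1 SE and filled points for an adjusted p under 0.05. The estimates are the same in both fits and only the errors differ, and Ctsa and Ctsc are open in both.

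Ctsa and Ctsc passed in neither fit. Ctsa encodes the protective protein that holds the sialidase Neu1 and the beta-galactosidase Glb1 in a lysosomal complex, beside its own carboxypeptidase activity. It was at 145, 120.4 and 186 FPKM in Epor-eGFP- and 133, 109 and 196 FPKM in Epor-eGFP+ libraries 0 to 2, so the ranges nearly coincided (151 ± 33.1 against 146 ± 45.1 FPKM, log2 fold change -0.06, SE 0.24, limma adjusted p = 0.845). Rescaling to a common total turned the sign (0.04), as did quantile normalization (0.07) and leaving out Epor-eGFP- library 2 (0.0999) or Epor-eGFP+ library 1 (0.12). Ctsc encodes the dipeptidyl peptidase that activates the serine proteases of neutrophil, mast cell and cytotoxic granules. It was at 117, 138 and 186 FPKM in Epor-eGFP- and 130.4, 122 and 232 FPKM in Epor-eGFP+ libraries 0 to 2 (147 ± 35.4 against 161 ± 61.2 FPKM, log2 fold change 0.10, SE 0.27, limma adjusted p = 0.786). Its sign turned without Epor-eGFP- library 0 (-0.05) and without Epor-eGFP+ library 2 (-0.19).

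The order of the levels differed between the groups. By mean FPKM in Epor-eGFP- libraries Cst3 came first, then Ctss, Ctsh, Ctsd, Ctsb, Ctsz, Ctsa, Ctsc, Cstb and Ctsl. In Epor-eGFP+ libraries it was Ctsd, then Ctsb, Cst3, Ctss, Ctsz, Ctsh, Ctsc, Ctsa, Cstb and Ctsl. Neighbours whose ranges overlapped in Epor-eGFP- were Cst3 and Ctss, Ctsh and Ctsd, Ctsd and Ctsb, Ctsb and Ctsz, and Ctsa and Ctsc. In Epor-eGFP+ they were Ctsd and Ctsb, Ctsb and Cst3, Cst3 and Ctss, Ctsh and Ctsc, and Ctsc and Ctsa. Of the genes that changed place, Ctsd moved from rank 4 to 1, Ctsb from 5 to 2 and Ctsh from 3 to 6. The place of Ctsb above Cst3 in Epor-eGFP+ rests on library 2, without which their means were 529 and 649 FPKM.

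Summed over the 8 cathepsins, transcripts came to 2074, 1825 and 2626 FPKM in Epor-eGFP- and 3027, 2152 and 5259 FPKM in Epor-eGFP+ libraries 0 to 2. Epor-eGFP+ library 1 lay within the Epor-eGFP- range, and the means were 3479 ± 1602 and 2175 ± 409.9 FPKM, or 2590 FPKM in Epor-eGFP+ without library 2. The make-up of this sum differed without overlap for each cathepsin except Ctsc and Ctsz. Ctsd held 14.7% ± 2.58 of it in Epor-eGFP- and 36.3% ± 6.34 in Epor-eGFP+ libraries, and Ctsb 11.6% ± 0.260 and 21.4% ± 2.28. Ctss went the other way, from 33.2% ± 3.68 to 16.9% ± 3.66, as did Ctsh, from 15.6% ± 1.43 to 6.07% ± 1.85. The shares of Ctsz, at 10.8% ± 0.221 and 9.43% ± 1.90, and of Ctsc, at 6.76% ± 0.987 and 4.79% ± 0.752, overlapped. These shares describe the 8 cathepsins and were not tested, and a larger share of one lowers those of the others.

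**Figure D3:**
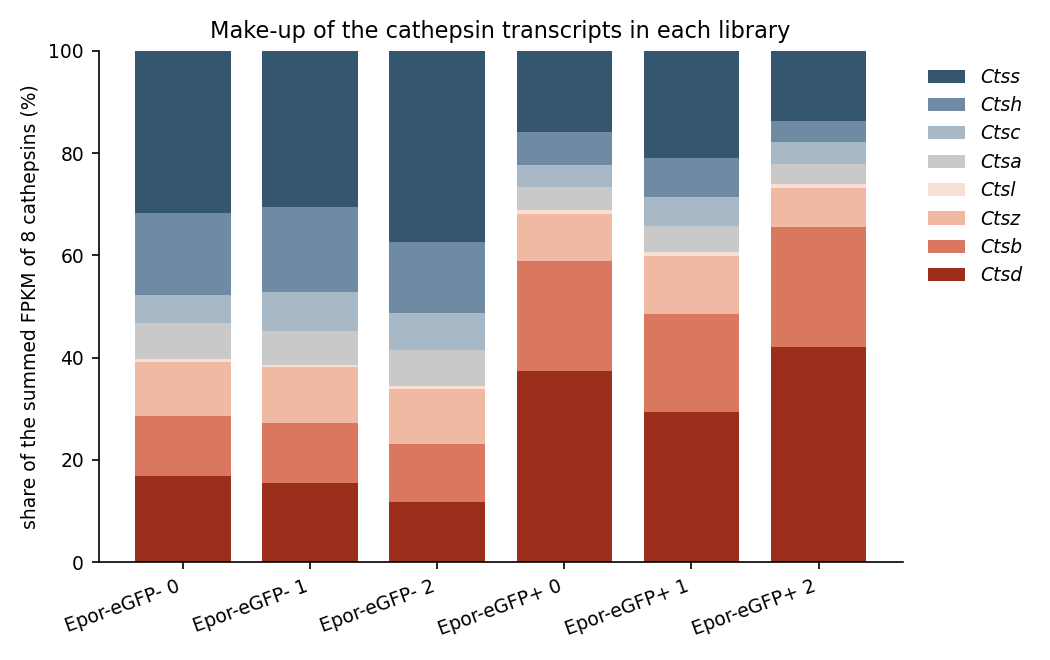
Share of each cathepsin in the summed FPKM of 8 cathepsins (percent, stacked from 0 to 100) in each of 6 libraries. Ctsd and Ctsb, at the base of the bars, took 48.5% to 65.6% together in Epor-eGFP+ and 23.1% to 28.6% in Epor-eGFP- libraries, while Ctss and Ctsh, at the top, took more in Epor-eGFP-.

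Set against the 6 cysteine cathepsins, which cystatins can bind, the transcripts of Cst3 and Cstb together were less abundant in Epor-eGFP+ libraries. Their summed FPKM divided by that of the cysteine cathepsins was 0.587, 0.618 and 0.588 in Epor-eGFP- and 0.438, 0.484 and 0.360 in Epor-eGFP+ libraries 0, 1 and 2. The ranges did not overlap, at means of 0.598 ± 0.0178 and 0.428 ± 0.0627. Cst3 made up most of this inhibitor transcript, and the ratio of Cst3 to Cstb was 15.3 ± 1.48 in Epor-eGFP- and 8.80 ± 1.10 in Epor-eGFP+ libraries. These are ratios of transcripts and not of proteins, and they were given no test. Cstb by itself had the higher mean in Epor-eGFP+ libraries. The cystatin gene Cst7, which rose from 38.3 to 108 FPKM, was left out of the sum.

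Within each group most of the 10 genes had the same order over the libraries. All 10 were highest in Epor-eGFP+ library 2 and lowest in Epor-eGFP+ library 1, where 33.8% and 33.1% of all tested genes were. In the Epor-eGFP- group 9 of 10 were highest in library 2, Ctsd being the exception, and 9 of 10 were lowest in library 1, Ctsc being the exception, against 38.5% and 36.3% of all tested genes. The spread over Epor-eGFP+ libraries was 3.48-fold for Ctsd, 3.03-fold for Ctsb and 2.65-fold for Ctsl, and 1.29-fold to 1.90-fold for the other 7 genes. Over Epor-eGFP- libraries it was 1.20-fold to 1.76-fold for all 10. Of the marker lists, those of mature macrophages, erythroid cells and the B lineage were also at their highest in library 2 and their lowest in library 1 of both groups. The mature macrophage sums for libraries 0 to 2 were 642, 563 and 814 FPKM in Epor-eGFP- and 794, 633 and 1319 FPKM in Epor-eGFP+. The erythroid sums were 83.9, 54.2 and 738 FPKM and 1086, 525 and 1881 FPKM, and the B lineage sums 281, 117 and 357 FPKM and 208, 207 and 276 FPKM. The markers of island and tissue macrophages had this order in Epor-eGFP+ only, and in Epor-eGFP- they summed to 148, 108 and 106 FPKM. The monocyte markers had it in Epor-eGFP- only, at 4544, 4257 and 5276 FPKM, against 1729, 2075 and 1622 FPKM in Epor-eGFP+. The part of these cell types in the levels of the 10 genes was not tested.

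**Figure D4:**
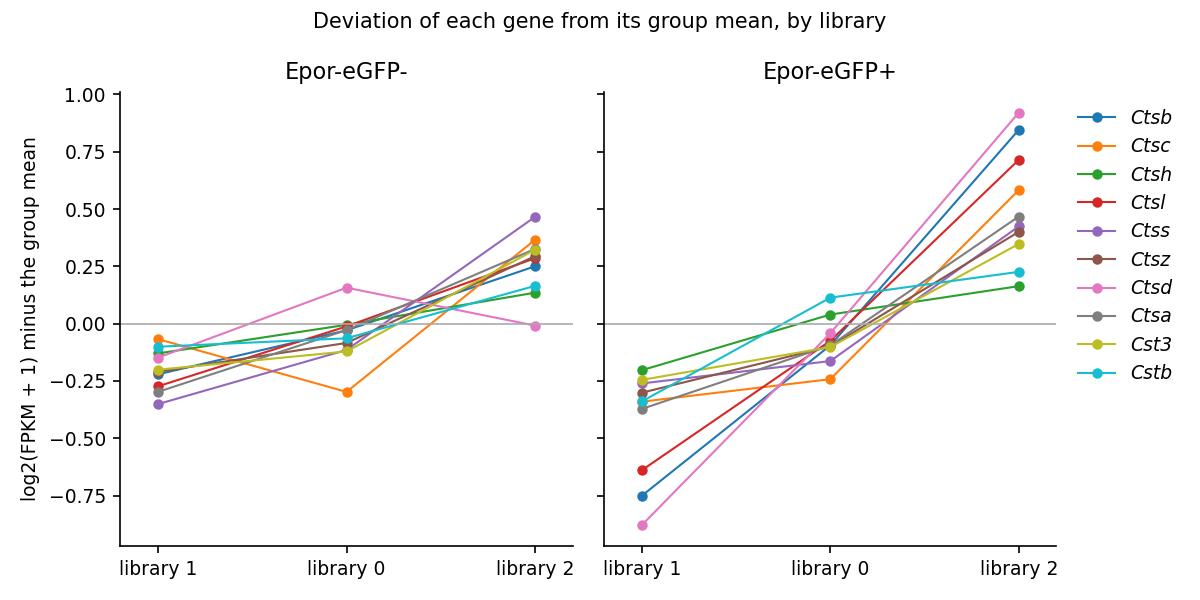
Deviation of log2(FPKM + 1) from the group mean for each of the 10 genes in the Epor-eGFP- libraries (left) and the Epor-eGFP+ libraries (right), in the order 1, 0, 2. In Epor-eGFP+ every line ends highest in library 2 and starts lowest in library 1, with Ctsd from -0.88 to 0.92 and Ctsh from -0.20 to 0.16.

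Likeness of pattern was measured as the root mean square difference between centred log2(FPKM + 1) profiles over the 6 libraries, in which 0 is an identical profile. Among the 10 genes, the closest were Ctss and Cst3 (0.0950) and Ctsz and Cstb (0.135), and the farthest apart were Ctsd and Ctsh (1.41). Over all tested genes, the nearest to Ctsd were Erbb2 (0.0829) and Sh3bgrl2 (0.0994), and the nearest to Ctsb were Efemp2 (0.0570) and Vav2 (0.0579). Erbb2 (0.0701 and 3.75 FPKM in Epor-eGFP- and Epor-eGFP+), Sh3bgrl2 (0.198 and 3.73 FPKM) and Efemp2 (0.463 and 3.21 FPKM) were under the 1 FPKM added before the log in Epor-eGFP-, so their likeness to Ctsd and Ctsb depends on that added value. Tmem86a (0.0686) and Abhd12 (0.0865) were nearest to Ctsl, and Arhgap30 (0.0379) and Gng2 (0.0507) to Ctsh. Ctss lay next to Ly86 (0.0578) and Clec4a1 (0.0663), Cst3 to Idh1 (0.0476) and Sumf1 (0.0477), Ctsz to Stard5 (0.0663) and Arhgap12 (0.0673), and Cstb to 0610012G03Rik (0.0410) and Fam220a (0.0519). Ctsc lay next to Zfp385a (0.105) and Scarb2 (0.123). Ctsa lay next to Hip1 (0.0410) and Psap (0.0433), the prosaposin gene, whose product carries the saposins to the lysosome. Each distance comes from 6 libraries that share their groups, so it describes a profile and nothing more.

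The 10 genes lie on 7 chromosomes (positions from GENCODE M21 on GRCm38), and each value covers a whole gene. Ctsd spans chromosome 7 from 142375911 to 142388038 (minus strand), Ctsc the same chromosome from 88278085 to 88310888 (plus), Ctsb chromosome 14 from 63122462 to 63145923 (plus) and Ctsl chromosome 13 from 64359337 to 64370890 (minus). Ctsh spans chromosome 9 from 90054152 to 90076089 (plus) and Ctss chromosome 3 from 95526786 to 95556403 (plus). Chromosome 2 holds Ctsa (164832873 to 164841032, plus), Ctsz (174427493 to 174439039, minus) and Cst3 (148871722 to 148875692, minus), and chromosome 10 holds Cstb (78425669 to 78427622, plus). Of the annotated exon bases, Ctsb shares 12.8% with Fdft1 on the other strand, whose own level was 10.8 FPKM in Epor-eGFP- and 12.6 in Epor-eGFP+ libraries, far below that of Ctsb. Ctsd shares 34.4% with Gm49369 on its own strand, and Ctsl 26.8% with the antisense gene Gm47123 and 6.09% with the pseudogene Gm49230. Ctsa shares 10.5% with Pltp and 6.87% with Neurl2, and Ctsz 0.694% with Nelfcd, all on the other strand. Pltp itself rose, from 36.9 ± 13.1 to 71.5 ± 11.7 FPKM (log2 fold change 0.99, limma adjusted p = 0.0236), while Neurl2 was at 3.62 and 2.03 FPKM and Nelfcd at 27.8 and 25.9 FPKM in Epor-eGFP- and Epor-eGFP+ libraries, with no call. Strand use in the counting is not given in the sources used here, so reads in the shared bases cannot be assigned with certainty.

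Of the other cathepsins in the table, Ctsk, Ctsf, Ctsg and Ctse rose, Ctsw fell and Ctso had no call. Ctsk, the collagen-degrading cathepsin of osteoclasts, was at 0.315, 0.440 and 0.260 FPKM in Epor-eGFP- and 57.6, 33.8 and 17.5 FPKM in Epor-eGFP+ libraries 0 to 2 (log2 fold change 4.65, SE 0.38, limma adjusted p = 0.000415). Its order over the Epor-eGFP+ libraries, highest in library 0 and lowest in library 2, was not that of Ctsd or Ctsb. Ctsf, a cysteine cathepsin, went from 1.39 ± 0.199 to 11.3 ± 7.41 FPKM (2.19, SE 0.39), or to 7.12 FPKM without Epor-eGFP+ library 2, in which it was highest as the 10 genes were. Ctse, an aspartic protease of the endosome, went from 8.76 ± 1.48 to 24.8 ± 6.75 FPKM (1.38, SE 0.20) and was highest in Epor-eGFP+ library 0. Ctsw, the cathepsin of cytotoxic lymphocytes, went from 2.76 ± 1.17 to 0.884 ± 0.132 FPKM (-0.96, SE 0.21). Limma adjusted p of Ctsf, Ctse and Ctsw ran from 0.00195 to 0.0100.

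Other inhibitors moved as well. Cst7, which encodes cystatin F, an inhibitor carried into the lysosome that acts on cathepsin C, was at 35.0, 48.8 and 31.2 FPKM in Epor-eGFP- and 108.8, 118 and 96.9 FPKM in Epor-eGFP+ libraries 0 to 2. It rose without overlap (log2 fold change 1.49, SE 0.17, limma adjusted p = 0.000920) and, unlike Cst3 and Cstb, peaked in library 1 and was lowest in library 2 of both groups. Stfa1, a stefin A gene with near-identical copies, went from 3.50 ± 0.951 to 1.26 ± 0.566 FPKM (lower, limma adjusted p = 0.0122), and its single values are uncertain. Of 6 serpins that act on lysosomal or granule proteases 3 rose and none fell, against 22.7% and 26.3% of all tested genes. Without Epor-eGFP- library 2 only 1 of them rose. Among them Serpinb6a went from 17.4 ± 4.25 to 123 ± 89.9 FPKM (2.49, SE 0.52, limma adjusted p = 0.00813), or to 74.1 FPKM without Epor-eGFP+ library 2.

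Cathepsin C has the granule serine proteases as its substrates. Of 5 tested genes of that list 3 rose and 2 fell, against 22.7% and 26.3% of all tested genes. The rises were in Ctsg, Elane and Prtn3, the proteases of azurophil granules. They are also 3 of the 4 promyelocyte markers. Elane, neutrophil elastase, went from 492 ± 179 to 2385 ± 281 FPKM (log2 fold change 2.33, SE 0.24, limma adjusted p = 0.000739). Ctsg went from 161 ± 54.3 to 707 ± 66.0 FPKM (2.17, SE 0.22). Over Epor-eGFP+ libraries both peaked in library 1 and were lowest in library 2, the reverse of Ctsc. The falls were in Gzma (-1.20) and the basophil protease gene Mcpt8 (-1.20). Ctsc itself had no call, as given above.

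Of 7 other lysosomal proteases and peptidases 4 rose, 2 fell and 1 had no call. Of all tested genes 22.7% rose and 26.3% fell. Lgmn, the asparaginyl endopeptidase that processes cathepsins B, H and L, was at 51.6, 36.2 and 70.6 FPKM in Epor-eGFP- and 207, 137 and 407 FPKM in Epor-eGFP+ libraries 0 to 2 (log2 fold change 2.13, SE 0.41, limma adjusted p = 0.00567). As with Ctsb and Ctsl, its level peaked in library 2 of both groups and was lowest in library 1. Cpq (1.56, SE 0.27), Dpp7 (1.09, SE 0.23) and Tpp1 (0.94, SE 0.24), an aminopeptidase of the lysosome, rose too. Napsa, an aspartic protease related to Ctsd, went from 334 ± 39.1 to 186 ± 13.3 FPKM (-0.84, SE 0.11, limma adjusted p = 0.00131), so the aspartic proteases Ctsd and Napsa went in opposite directions. Scpep1, a serine carboxypeptidase as Ctsa is, was at -0.56 (SE 0.19, limma adjusted p = 0.0440), a call lost on rescaling to a common total (0.0618) and without Epor-eGFP- library 0 (0.0745) or 2 (0.0735) or Epor-eGFP+ library 0 (0.109) or 1 (0.117).

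Of 4 partners of Ctsa and Ctsd 1 rose and 3 had no call, against 22.7% higher and 26.3% lower over all tested genes. Psap, which was at 2506 ± 512 FPKM in Epor-eGFP- and 2380 ± 670 FPKM in Epor-eGFP+ libraries and so above every cathepsin in mean level, had no call (log2 fold change -0.09, SE 0.23, limma adjusted p = 0.763). Neu1 (0.03, SE 0.10), held by the Ctsa product, and Grn (0.35, SE 0.27), the progranulin gene, had none either. Glb1, the other partner of Ctsa, rose by 0.46 (SE 0.14, limma adjusted p = 0.0270), and lost its call without Epor-eGFP- library 0 (0.0785) or 2 (0.0792) or Epor-eGFP+ library 0 (0.0718). Of 15 genes of sorting to the lysosome 4 rose and 4 fell, near the 22.7% and 26.3% of all tested genes. Without Epor-eGFP- library 2 or without Epor-eGFP+ library 0 only 2 rose. M6pr, the cation-dependent mannose 6-phosphate receptor, rose by 0.51 (SE 0.09, limma adjusted p = 0.00483) and its adaptor gene Gga2 by 0.68 (SE 0.09), while Cln3, a lysosomal membrane protein gene, fell by 0.74 (SE 0.13). Of 18 proton pump genes 4 rose, none fell and 14 had no call, against 22.7% higher and 26.3% lower over all tested genes. With the replicate block 5 rose and 3 fell, against 28.0% and 30.4% of all tested genes. Without Epor-eGFP+ library 2, 1 fell. Atp6v0d2, a subunit of osteoclasts and some macrophages, rose by 2.63 (SE 0.32) and over the Epor-eGFP+ libraries had the order of Ctsk.

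Of 11 regulators of the lysosome 2 were higher and 3 lower, near the 22.7% and 26.3% of all tested genes. Tfeb, whose product binds the E-box given above, was at 42.5, 36.9 and 45.4 FPKM in Epor-eGFP- and 23.0, 21.6 and 24.2 FPKM in Epor-eGFP+ libraries 0 to 2. It fell without overlap (log2 fold change -0.83, SE 0.09, limma adjusted p = 0.000971). Its part in the levels of Ctsd and Ctsl was not tested. Tfec, a relative of Tfeb found in macrophages, rose from 9.66 ± 1.73 to 23.8 ± 2.81 FPKM (1.22, SE 0.14, limma adjusted p = 0.000936). Without Epor-eGFP+ library 0 or without library 2 only 1 regulator was higher. In antigen presentation, where cathepsins S and L cut the invariant chain, 5 of 9 tested genes rose and 1 fell. Of all tested genes 22.7% rose and 26.3% fell. H2-Eb1 rose by 1.45 (SE 0.17) and H2-Aa by 1.20 (SE 0.19), while Ctss had no call without the block. Without Epor-eGFP- library 0 the list had 3 genes higher, and without that library, Epor-eGFP+ library 0 or 1, or on rescaling to a common total it had 0 lower.

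**Figure D5:**
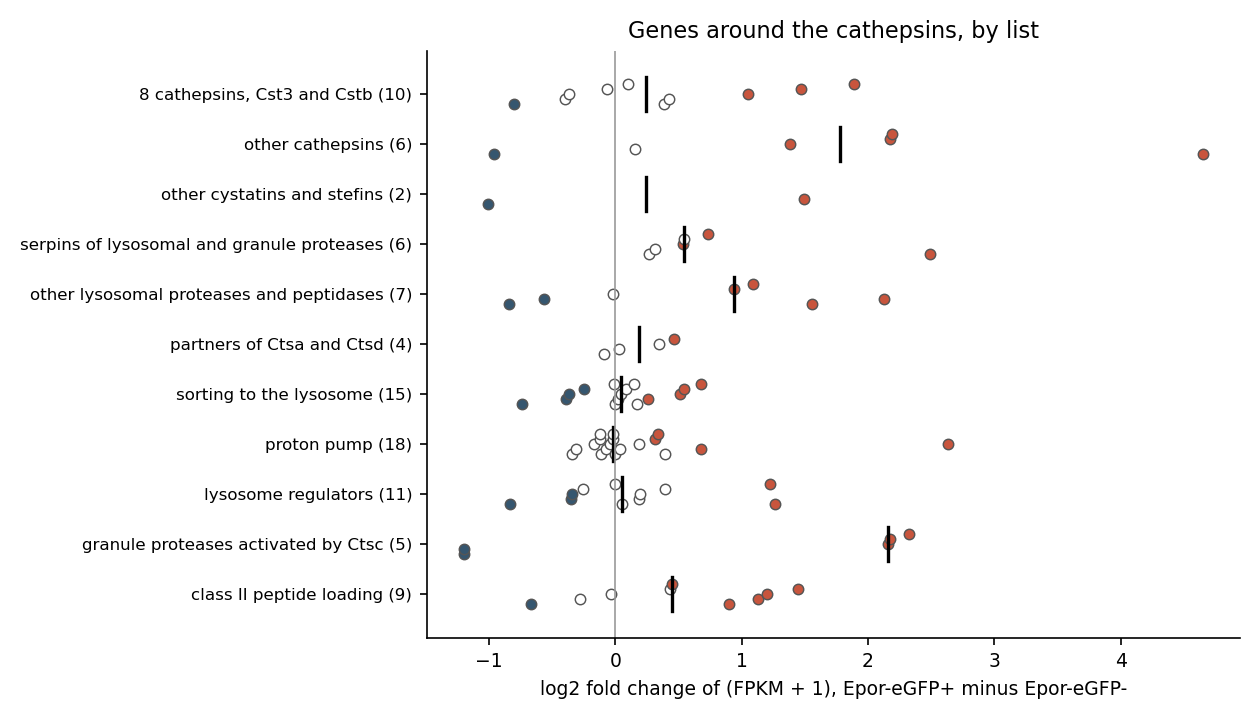
Log2 fold change of (FPKM + 1), Epor-eGFP+ minus Epor-eGFP-, of the 10 genes and of 10 lists of genes around them, with the number of tested genes in brackets, a black line at each median, red for higher calls, blue for lower calls and white for no call. Each of the lists of proton pump, sorting and regulator genes had a median between -0.02 and 0.05, while that of the other cathepsins was 1.78.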

How the data were processed

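RNA of 6 libraries was sequenced after preparation with a TruSeq RNA kit, per the labels' protocols. The authors deposited FPKM per gene in a single table. Cufflinks 2.2.1, TopHat2 2.1.0, Trimmomatic 0.35 and bcl2fastq 2.19.1.403, with the build mm10, are named, without roles, in the submitters' processing notes. No source used here gives the annotation, filters or scaling. Column names hold a group and a number (0 to 2) that differs from the numbers in titles (1 to 3), so columns were assigned to groups only.

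Genes averaging 1 FPKM or more were fitted with limma 3.58.1 (R 4.3.3) on log2(FPKM + 1), which understates changes of low genes, with a trended eBayes, two-sided tests and Benjamini-Hochberg adjustment. The fit was tested on simulated data. That simulation drew each library independently, so it does not cover same-numbered libraries that deviate together. Same-numbered libraries correlated in their deviations from the group means (0.25, 0.38 and 0.35, against -0.39 to 0.07 for other pairs). All same-numbered pairs exceeded the 0.1 set for every pair, so a fit with a replicate block was also made. It is printed where it changes a call of the 10 genes, and for the proton pump list. Some calls in other lists also changed with the block and are not printed. Genes, lists and named genes (all 10 members, the closest relatives, up to 4 genes of largest change in other lists, and the 2 nearest profiles of each member) were chosen with earlier results of these data known.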

Additional observations from a re-analysis of the deposited data

How the results depend on the processing

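Over 18 alternatives Ctsd and Ctsh kept their calls, with log2 fold changes of 1.43 to 2.33 and -0.89 to -0.63. Without the block, 3 of the 10 genes were higher and 1 lower. Higher were 5 under quantile normalization, 5 with the replicate block and 5 with library weights, whose estimation stopped before it converged and which called 75.3% of all genes. Lower were 3 with the replicate block, 3 with library weights and 3 without both libraries numbered 2. Leaving out 1 library gave 1 to 4 higher and 1 to 2 lower, with 1 higher without Epor-eGFP- library 0. The replicate block ended no call of the 10 genes. Over all tested genes, higher calls went from 2489 to 3998 with library weights, and to 1611 to 2428 with 1 library left out. The sign turned for Ctsa on rescaling to a common total (0.0375) and under quantile normalization (0.0652), and over the libraries left out it ran from -0.30 to 0.12. For Ctsc it turned without both libraries numbered 2 (-0.0110), and ran from -0.19 to 0.28. The cause was not tested. Without Ctsc in the sum, the ratio of inhibitors to cysteine cathepsins was 0.654 in Epor-eGFP- and 0.465 in Epor-eGFP+ libraries. Depth is unknown, so no counting interval limits these values.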
